A study of Haemaphysalis flava with 2 samples.

Results

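Ribosomal proteins were followed in the salivary glands of Haemaphysalis flava, a hard tick, at 2 stages of the blood meal, engorged and semi-engorged. Members were contigs of the assembled transcriptome whose best-matching protein carries the words "ribosomal protein" in its name, leaving out names with kinase, acetyltransferase or methyl. The rule found 83 of 54357 contigs. Of these, 37 were called mitochondrial because the name also holds mitochondri, 28S or 39S, and the other 46 were called cytosolic. The rule used names only and no measured value. The series text speaks of 100 glands, from 50 engorged and 50 semi-engorged ticks, and the labels give no strain, sex, age or treatment. Each stage is 1 library of polyadenylated RNA, so no difference here has a replicate check and no p-value was computed. The engorged library held 57892372 reads on contigs and the semi-engorged library 54039984.

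A cell of an animal builds its proteins on cytosolic ribosomes, which join a small (40S) and a large (60S) subunit, each an assembly of ribosomal RNA and many proteins present in about equal numbers. Mitochondria keep a ribosome of their own, with a 28S and a 39S subunit in mammals, which makes the few proteins encoded by the mitochondrial genome, most of them core subunits of the respiratory chain. The proteins of the mitochondrial ribosome are themselves encoded in the nucleus, made in the cytosol and imported. Salivary glands of feeding ticks secrete large amounts of protein into the bite and break down after engorgement. A protein of the cytosolic ribosome and one of the mitochondrial ribosome can carry the same letter and number without being the same protein.

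Both classes differed in level and in how their members compared between the stages. Mitochondrial members were present at low levels and spread from 5.34-fold lower to 1.64-fold higher in engorged glands, with 27 of 37 log2 folds below 0. Cytosolic members were far more abundant and lay at close to equal levels in both libraries, with 43 of 46 within 0.5 of 0 on the log2 scale. The median log2 fold, engorged over semi-engorged, was -0.54 for mitochondrial and -0.066 for cytosolic members, a difference of -0.48. When members were limited to names that start with 28S, 39S, 40S or 60S, which leaves 2 mitochondrial and 17 cytosolic contigs, the difference turned to 0.061. CPM is a contig's reads for every 1000000 of its library, and 1 was added to the CPM of both stages before their ratio was taken, which shrinks the fold of low contigs. A median over members describes these 2 libraries; the members share both libraries and are not replicates. Over the 17032 contigs for which each library held 100 reads or more, the middle log2 ratio was 0.23, and with this shift set to 0 the medians were -0.76 for mitochondrial and -0.30 for cytosolic members. With totals that left out the 50 most abundant contigs of each library they were -0.33 and 0.16, and 23 of 37 mitochondrial log2 folds were below 0.

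A contig was called at least 2-fold apart at a log2 fold of 1 or more in either direction. Of the mitochondrial members, 0 of 37 were higher in engorged glands and 8 were lower. Of all 47965 contigs with at least 20 reads over both libraries, 13.0% were higher in engorged glands and 15.5% in semi-engorged glands. All 83 members passed this minimum. Calls depend on the number of reads, and mitochondrial members held 238 to 4519 reads over both libraries. Among the 8674 described contigs in that range, 22.0% were higher in engorged glands and 19.7% in semi-engorged glands, with a median log2 fold of 0.20. The share of mitochondrial members lower in engorged glands, 21.6%, was close to that of these contigs. It depended on the setting, with 13 members (35.1%) against 22.8% of the contigs when the median ratio was set to 0, and 3 members (8.11%) against 7.76% with 10 added to the CPM. On the engorged side 0 of 37 members were called under each of these settings. The share of the described contigs on that side was 22.0% in the main setting. It was 16.9% with the median ratio set to 0 and 6.38% with 10 added to the CPM. Of the cytosolic members, 1 was higher and 2 were lower in engorged glands, 6.52% in all against 28.5% of all tested contigs and 43.1% of those with at least 100 reads.

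**Figure D1:**
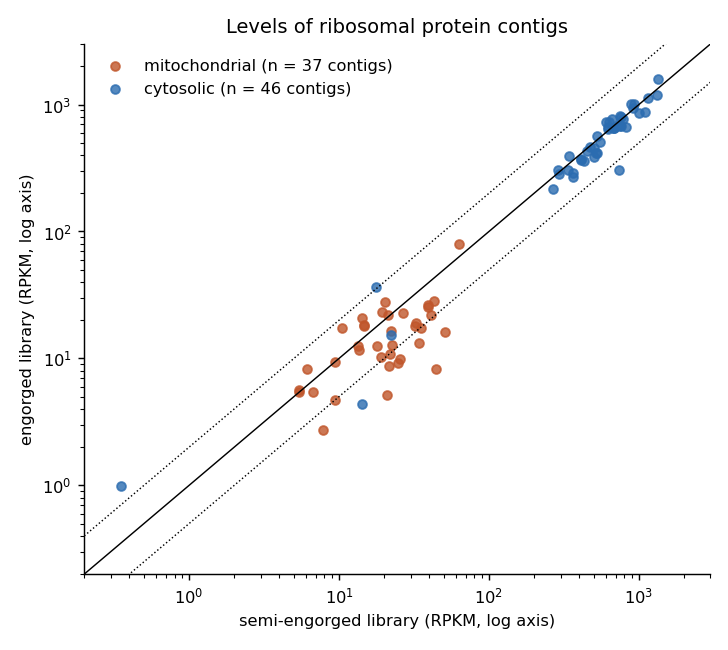
Level of each ribosomal protein contig in engorged glands (vertical, RPKM, log axis) against semi-engorged glands (horizontal, RPKM, log axis); the solid line marks equal levels and the dotted lines 2-fold differences. The 37 mitochondrial contigs scatter at low levels, mostly on the semi-engorged side, and the 46 cytosolic contigs lie mostly above 200 RPKM and close to the solid line.

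As a share of all reads, mitochondrial members took 0.0528% of engorged reads (Wilson 95% interval 0.0522% to 0.0534%) and 0.0704% of semi-engorged reads (0.0697% to 0.0711%). Cytosolic members took 1.66% (1.66% to 1.66%) and 1.74% (1.74% to 1.74%). Both intervals cover counting error only. The mitochondrial ratio of shares was 0.749, and 0.876 when the totals left out the 50 most abundant contigs of each library. The cytosolic ratio was 0.955 and turned to 1.12 on the same scalings, so no direction is given for it. In whole glands, fewer cells of a type and less RNA per cell cannot be told apart.

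Levels per contig length were compared in RPKM, a read count scaled by contig length and library total. The median mitochondrial level was 13.1 RPKM in engorged glands and 21.3 RPKM in semi-engorged glands. The median cytosolic level was 601 RPKM in engorged glands and 609 RPKM in semi-engorged glands. Among cytosolic members, 42 of 46 were above 200 RPKM in both libraries, and these ran from 217 to 1603 RPKM in engorged glands and from 268 to 1349 RPKM in semi-engorged glands. Between the libraries, Spearman's rho of the levels was 0.56 across 37 mitochondrial contigs and 0.93 across 46 cytosolic contigs. These correlations are across contigs of the same libraries, where length and base composition are shared, and are given as a description.

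Among cytosolic proteins, the small subunit was represented by 20 contigs with a median log2 fold of -0.12 and the large subunit by 24 contigs with a median of -0.034. The names gave 19 different numbers of the small and 21 of the large subunit. The most abundant member by reads was S3a (contig_65), a small subunit protein near the exit of the mRNA channel, with 59392 reads in engorged glands and 56760 in semi-engorged glands, a CPM ratio of 0.977 (exact 95% interval 0.966 to 0.988). The highest level per length was that of L32 (contig_127), at 1603 RPKM in engorged glands and 1349 RPKM in semi-engorged glands. S3a stood at nearly the same level in both libraries, while the CPM ratio of L32 was 1.19 (1.17 to 1.21), well under 2-fold. The log2 fold of S3a turned from -0.034 to 0.19 without the 50 most abundant contigs in the totals, so no direction is given for it.

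The other cytosolic contigs with the most reads behaved alike. The contig named 60S acidic ribosomal protein (contig_3088), a name used for the stalk of the large subunit that recruits elongation factors, had 47603 reads against 38602, a ratio of 1.15 (1.14 to 1.17). It was the only stalk contig by name, and the name does not say which stalk protein it is. L7 (contig_796) had 37930 reads in engorged glands and 43484 in semi-engorged glands, a ratio of 0.814 (0.803 to 0.826). A contig named ribosomal protein without a number (contig_2025), matched to the related tick Haemaphysalis qinghaiensis, had 32205 against 33346 reads. Among these abundant contigs, then, differences stayed well under 2-fold and went both ways.

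The narrow spread held for most of both subunits. Besides L32 and the stalk contig, the highest folds among large subunit proteins were those of L37A (contig_1458), at 726 RPKM in engorged glands and 600 RPKM in semi-engorged glands with a log2 fold of 0.27, and L29 (contig_1639), at 396 and 341 RPKM with a log2 fold of 0.21. The lowest folds among numbered proteins with tick matches were those of S7 (contig_5860), L22 (contig_3352) and S9 (contig_1620). Their log2 folds were -0.49, -0.44 and -0.38, and their levels were 15.4, 270 and 387 RPKM in engorged glands against 22.1, 366 and 504 RPKM in semi-engorged glands. S6 (contig_1797), the small subunit protein that S6 kinases phosphorylate, had 26084 reads against 23011, a ratio of 1.06 (1.04 to 1.08). L31 (contig_2237) and L35 (contig_194), which lie around the exit of the tunnel through which the new protein leaves, had log2 folds of 0.17 and 0.041. The depth of these contigs makes small differences visible: the counting interval of the ratio lay below 1 for 29 and above 1 for 16 of 46 cytosolic members, while such intervals say nothing of the spread between ticks. This balance follows the scaling: 30 of 46 log2 folds were below 0, and 12 when the totals left out the 50 most abundant contigs.

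The cytosolic contigs past the 2-fold line were unusual in level, name or match. The contig named as the fusion of ubiquitin and S27a (contig_7378), a precursor that is cut into the protein tag ubiquitin and a small subunit protein, had 3443 reads in engorged glands and 1550 in semi-engorged glands, a ratio of 2.07 (1.95 to 2.20). Its log2 fold of 1.03 lay just past the line, and its level of 36.5 RPKM against 17.6 RPKM was far below that of most small subunit proteins. A contig of 361 bases named ribosomal protein without a number (contig_2244) had 6343 reads against 14274, and was 2.41-fold lower in engorged glands (2.34 to 2.48). The third, named L34 (contig_20768), had 125 reads against 376 and was 3.22-fold lower (2.63 to 3.98).

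This last contig has its best match in a spruce, Picea sitchensis, and a second contig named L34 (contig_1238), matched to the tick Dermacentor variabilis, had 23078 reads against 19943 and a log2 fold of 0.11. The organism that contig_20768 comes from was not tested. The same holds for S11, where the contig with a tick match (contig_2606) had 17649 reads in engorged glands and 18550 in semi-engorged glands, and a contig matched to the vampire bat Desmodus rotundus (contig_32014) had 30 against 10. The plain CPM ratio of contig_32014 was 2.80 (1.33 to 6.42), and only the added 1 brought its log2 fold down to 0.36. Both contigs named L19, contig_106 with a tick match and contig_481 with a leafhopper match, had the same log2 fold of -0.13. Contigs of 1 protein can share reads, and how the authors' counting treated such reads is not given in the sources used here. Without the contigs that have no tick match (3 cytosolic and 1 mitochondrial) the medians were -0.52 for mitochondrial and -0.064 for cytosolic members.

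**Figure D2:**
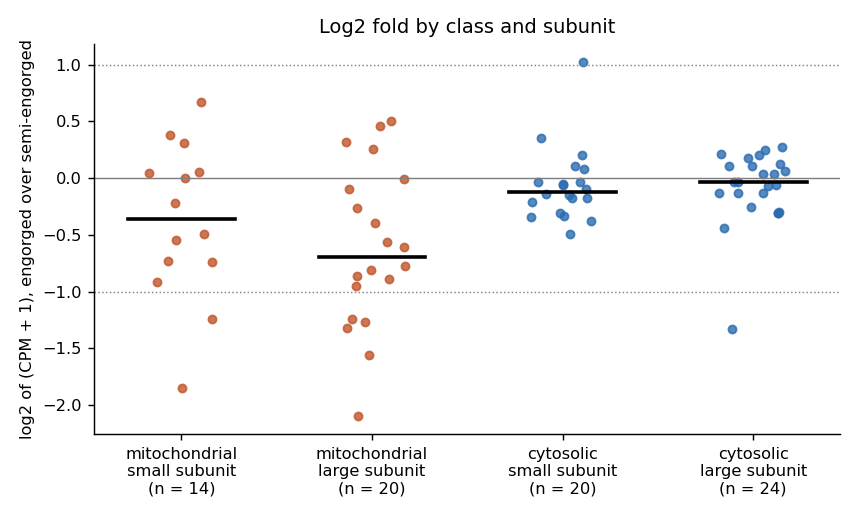
Log2 fold (CPM + 1, engorged over semi-engorged) of each contig whose subunit the name gives, by class and subunit, with the median as a black bar and dotted lines at 1 and -1. The medians are -0.36 and -0.69 for the mitochondrial small and large subunit, and -0.12 and -0.034 for the cytosolic ones.

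Both subunits of the mitochondrial ribosome had a median below 0 under each of the 4 scalings tried. The subunit was taken from the letter or the subunit size in the name, S18a included, and was not checked otherwise. The 14 contigs of the small subunit by name had a median log2 fold of -0.36, with 2 at least 2-fold lower in engorged glands. The 20 large subunit contigs had a median of -0.69, with 5 at least 2-fold lower. A further 3 contigs carry no number or subunit, and 1 of them was at least 2-fold lower. Of all tested contigs 15.5% were lower, and of the described contigs in the read range of mitochondrial members 19.7%, so these counts say little about either subunit. In RPKM, the small subunit had medians of 11.99 in engorged glands and 15.8 in semi-engorged glands, and the large subunit 16.3 and 23.5. The ranges of both subunits overlapped almost fully, from -1.85 to 0.67 for the small and from -2.10 to 0.50 for the large subunit.

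The 8 mitochondrial contigs at least 2-fold lower in engorged glands belonged to both subunits. The lowest was L14 (contig_11617), a large subunit protein at the contact with the small subunit, with 180 reads in engorged glands and 897 in semi-engorged glands, 5.34-fold lower (4.54 to 6.30). S34 (contig_19620), a small subunit protein found only in mitochondrial ribosomes, had 386 reads against 1443 and a log2 fold of -1.85. L20 (contig_22568), which in bacteria is needed early in assembly of the large subunit, had 541 reads against 1591 and was 3.15-fold lower (2.86 to 3.48). In levels, these 3 stood at 8.27, 5.20 and 16.1 RPKM in engorged glands against 44.1, 20.8 and 50.7 RPKM in semi-engorged glands.

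The remaining 5 were between 2.45-fold and 2.85-fold lower. The large subunit proteins L15 (contig_13232), L43 (contig_22154) and L55 (contig_18324) had 765, 476 and 227 reads in engorged glands against 1862, 1147 and 576 in semi-engorged glands. L15 has a bacterial counterpart, and L43 and L55 do not. S21 (First_Contig790) had 166 reads against 441, and a contig with no number (contig_12072) had 416 against 950.

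Close to the line, L12 (contig_3290), the stalk protein of the mitochondrial ribosome, had 688 reads against 1294 and a log2 fold of -0.95. A 28S contig with no number (First_Contig542) had 423 reads against 793 and a log2 fold of -0.92. Their CPM ratios without the added 1 were 0.496 and 0.498, so these 2 contigs would pass a 2-fold line drawn on the plain ratio.

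A middle group of large subunit proteins was lower in engorged glands by less. L41 (contig_16279), L9 (contig_10523), L35 (contig_25230) and L36 (contig_12882) had log2 folds of -0.89, -0.86, -0.81 and -0.78. L9 had the most reads of these, 1541 in engorged glands against 2657 in semi-engorged glands. L30 (contig_2869), L52 (contig_6088) and L17 (contig_13041) had log2 folds of -0.61, -0.56 and -0.40; L17 lies at the exit of the protein tunnel, and L52 has no bacterial counterpart. L52 stood at 28.3 RPKM in engorged glands and 42.8 RPKM in semi-engorged glands, among the highest mitochondrial levels, and its best match is a butterfly protein.

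Small subunit proteins formed a like middle group. S10 (contig_21102) had 374 reads against 617, S18c (contig_7405) 608 against 978, and S14 (contig_1160) 919 against 1273, with log2 folds of -0.73, -0.73 and -0.54. S24 (contig_11826), the counterpart of the bacterial S3 protein at the entry of the mRNA channel, had 535 reads against 724 and a log2 fold of -0.49. For all of these large and small subunit contigs the counting interval of the ratio lay below 1.

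Closer to equal levels were L3 (contig_22180), a protein near the peptidyl transferase centre, with 409 reads in engorged glands and 469 in semi-engorged glands, S6 (contig_6737) with 1284 against 1407, and an unnumbered contig (contig_11100) with 739 against 800. Their ratios were 0.814, 0.852 and 0.862, with intervals below 1. For 5 contigs the interval held 1, so a difference was not detectable at this depth: L39 (contig_11087), L19 (contig_12708), S23 (contig_15256), S18a (contig_14701) and a 28S contig without a number (contig_6364). S23 had the fewest reads of the class, 123 against 115, and its interval ran from 0.768 to 1.30.

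On the engorged side stood 8 contigs with intervals above 1, all of them under 2-fold. The largest ratio was that of a 28S contig without a number (contig_2613), with 1236 reads in engorged glands and 704 in semi-engorged glands, 1.64-fold higher (1.49 to 1.80). L46 (contig_16114) had 1237 against 798 and was 1.45-fold higher (1.32 to 1.58), and L28 (contig_234) had 2703 against 1816 and was 1.39-fold higher (1.31 to 1.48). L28 was also the mitochondrial contig with the most reads over both libraries.

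The other 5 on that side were S2 (contig_3724), L32 (First_Contig50), S11 (contig_445), an unnumbered contig (contig_5347) and L38 (contig_1765). Their log2 folds were 0.38, 0.32, 0.31, 0.27 and 0.26. S11, a protein of the small subunit platform, had the highest level per length of the class, 79.1 RPKM in engorged glands and 63.4 RPKM in semi-engorged glands. Over the class, the interval of the ratio lay below 1 for 24 contigs, above 1 for 8 and on both sides of 1 for 5.

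**Figure D3:**
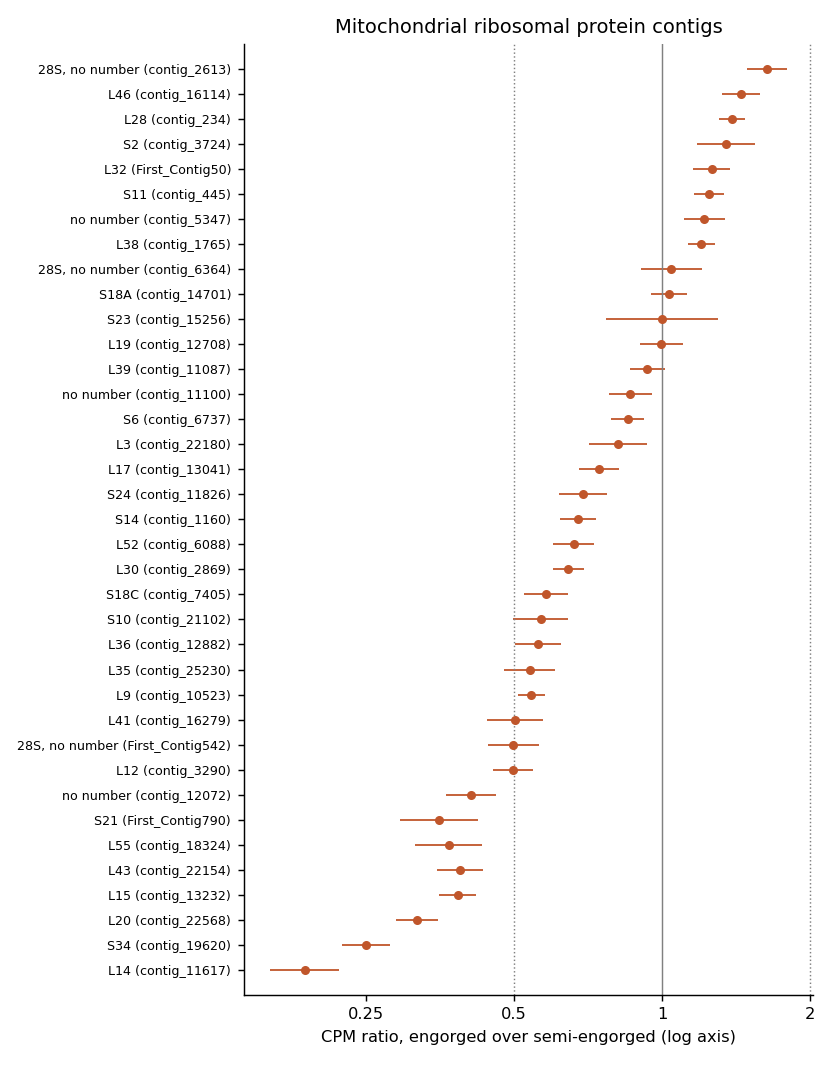
CPM ratio, engorged over semi-engorged (log axis), of the 37 mitochondrial ribosomal protein contigs, ordered by log2 fold, with exact 95% intervals that cover counting error only; the solid line marks equal levels and the dotted lines 2-fold differences. The lowest is L14 at 0.187 and the highest a 28S contig without a number at 1.64.

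Mitochondrial ribosomal proteins fall into those with a counterpart in bacterial ribosomes and those added to the mitochondrial ribosome later. By their numbers, 22 contigs belong to the first kind and 9 to the second, and 6 carry no number. The medians were -0.58 for those with a bacterial counterpart and -0.56 for the mitochondria-specific ones. At least 2-fold lower in engorged glands were 4 of 22 and 3 of 9. Of all tested contigs 15.5% were lower, and of the described contigs in the read range of mitochondrial members 19.7%. With so few contigs, these counts say little about either kind. Their ranges overlapped, from -2.10 to 0.46 and from -1.85 to 0.50.

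Contig length, which the rule did not use, went with the log2 fold of mitochondrial members. The 12 contigs of up to 600 bases had a median of -0.73 and the 9 contigs of 600 to 1000 bases one of -0.61, while the 16 contigs over 1000 bases had a median of -0.049. That of the longest class turned to 0.17 without the 50 most abundant contigs in the totals, and the order of the classes stayed. Of the 19 contigs up to the median length of 842 bases, 18 had a log2 fold below 0, and of the 18 longer ones, 9. Across the 37 contigs, Spearman's rho of length and log2 fold was 0.34, against 0.10 across the 8674 described contigs in the same read range. Exceptions included S34 (1283 bases), L15 (1005 bases) and S21 (1045 bases), with log2 folds of -1.85, -1.32 and -1.24. Another was S11, which is 412 bases long with a log2 fold of 0.31. Called lower were 3 of 12, 2 of 9 and 3 of 16 contigs from the shortest to the longest class. Of all tested contigs 15.5% were lower, and of the described contigs in the read range 19.7%.

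Described contigs of the same read range moved with length as well, by less. Their medians were -0.019 up to 600 bases, 0.044 from 600 to 1000 bases and 0.30 above 1000 bases. In each length class the mitochondrial median was the lower one. Cytosolic members showed no like order, with medians of -0.058, -0.15 and 0.081 in the same classes (23, 18 and 5 contigs). The part of length in the class difference was not tested. Contig number also went with the log2 fold over the whole table: contigs numbered up to 32014, the highest number of a member, had a median of 0.23, against -0.049 over all tested contigs. The classes differed in number too. Among numbered cytosolic members only contig_20768 and contig_32014 lay above 7378, while mitochondrial numbers ran up to 25230. Mitochondrial members called lower lay at numbers from 11617 to 22568, apart from First_Contig790, which has none. No mitochondrial member numbered below 11617 was called. The part of contig number in the class difference was not tested.

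**Figure D4:**
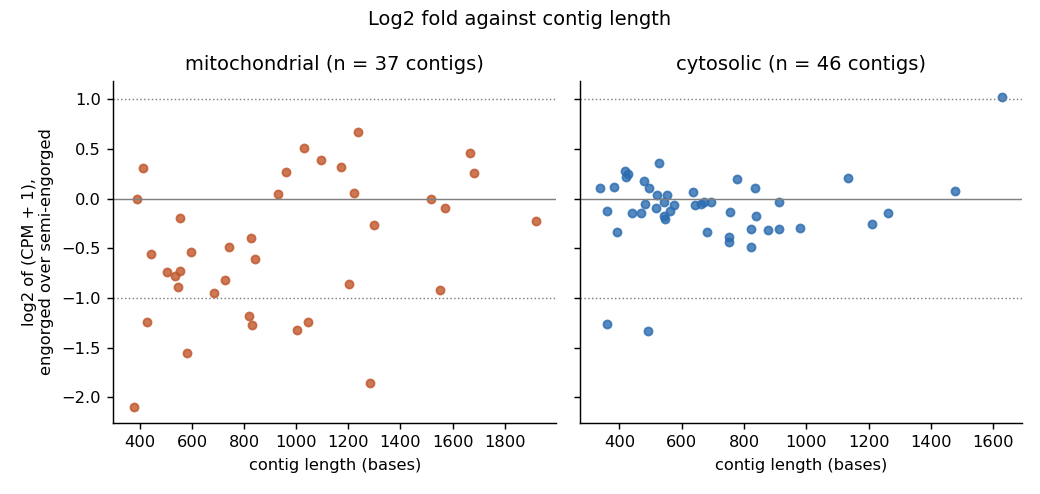
Log2 fold (CPM + 1, engorged over semi-engorged) against contig length in bases, for mitochondrial members on the left and cytosolic members on the right, with dotted lines at 1 and -1. Short mitochondrial contigs lie mostly below 0 and those over 1000 bases lie on both sides, while cytosolic contigs stay near 0 at all lengths but for the 3 past the 2-fold line.

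Other parts of the machinery for making ribosomes and proteins were counted from name patterns. As a background for the counts, 13.0% of all tested contigs were called higher and 15.5% lower in engorged glands. Among the 8674 described contigs in the read range of mitochondrial members these shares were 22.0% and 19.7%, with a median of 0.20. Calls depend on reads, and the lists below were not matched to a background by reads. Of 40 contigs of ribosome biogenesis, the nucleolar work of making and processing ribosomal RNA, 11 (27.5%) were at least 2-fold higher in engorged glands and 0 were lower, with a median of 0.43. A nucleolar and coiled-body phosphoprotein (contig_468) had 7927 reads against 1036 and was 7.14-fold higher (6.69 to 7.63). The most abundant contig, a nucleolar GTPase (contig_1745), and nucleolin (contig_750), the lowest, had log2 folds of -0.40 and -0.71. In all, 33 of 40 biogenesis contigs had log2 folds above 0, and the median was between 0.25 and 0.65 under the other scalings tried.

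Of 50 contigs named after cytosolic translation factors, 6 (12%) were higher and 4 (8%) lower, shares below those of both backgrounds. Their median was 0.090, and its sign turned with the scaling. The list also holds kinases, binding proteins and other names that only mention a factor, and without these 2 of 39 (5.13%) were higher and 4 (10.3%) lower, with a median of -0.19, which turned to 0.027 without the 50 most abundant contigs in the totals. Elongation factor 1-alpha (contig_6), which brings aminoacyl-tRNA to the ribosome, was the most abundant, with 153377 reads in engorged glands and 207540 in semi-engorged glands, a ratio of 0.690 (0.685 to 0.694). The cap-binding subunit of initiation factor 4F (First_Contig221) was 13.2-fold higher (11.4 to 15.3), with 2694 reads against 191. A contig named initiation factor IF-2 (contig_20288) was 3.97-fold lower (3.64 to 4.33), with 670 against 2482. The list was called cytosolic only because its names do not hold mitochondri. The name of contig_20288 does not give its compartment, which was not tested.

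The names left out by the rule were 6 contigs of ribosomal protein S6 kinases, which signal growth to the ribosome. Of these, 2 passed the 2-fold line on the engorged side (33.3%, against 13.0% of all tested contigs) and 0 on the other, with a median of 0.65. With 6 contigs, the 2 called say little about the list. The log2 fold of 1 of them (contig_17009) was 1.04, just past the line, with 163 reads against 46. The most abundant (contig_3269) had 8669 reads against 2559 and was 3.16-fold higher (3.03 to 3.31), whereas contig_4688, matched to the related tick Haemaphysalis longicornis, had 4758 against 5952. A contig named mitochondrial/chloroplast ribosomal s17-like protein (contig_9819) missed the rule by its wording; it had 306 reads in engorged glands and 1200 in semi-engorged glands and a log2 fold of -1.88.

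Lists of mitochondrial proteins also had medians below 0, under each of the 4 scalings tried. Of 7 contigs of mitochondrial translation and import, 0 were higher and 2 lower in engorged glands, with a median of -0.37. With so few contigs, the 2 called (28.6%, against 15.5% of all tested contigs) say little about the list. The lowest was a Tim44 contig (contig_6034), a part of the motor that pulls proteins into the matrix, with 404 reads against 928, and the highest a tRNA amidotransferase subunit (contig_10377), with 347 against 225. The most abundant, the elongation factor EF-Ts (contig_8094), had 3811 against 3336.

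Respiratory chain and ATP synthase names counted 1 higher and 13 lower (50.0%, against 15.5% of all tested contigs) of 26, with a median of -1.11 and 7 above 0. The 16 names of nuclear genes, set apart after values were seen, held all 13 and had a median of -1.52, and the 7 above 0 were all among the names taken out, which are subunits of mitochondrial genomes and a vacuolar pump. Among the nuclear names the ATP synthase beta subunit (contig_1384) was the most abundant, with 15912 reads in engorged glands and 68326 in semi-engorged glands. It was 4.60-fold lower (4.52 to 4.68) in engorged glands. The lowest contig of the list was the ATP synthase alpha subunit (First_Contig24), 7.36-fold lower (7.16 to 7.57). The 1 called higher was a vacuolar ATP synthase subunit E (contig_6281), 3.07-fold higher (2.68 to 3.54). Cytochrome c oxidase subunit 1, as contig_10 is named, a subunit that mitochondrial ribosomes make, had a log2 fold of 0.54. Unlike the median, the reads of the 26 contigs together were higher in the engorged library, 4531215 against 3146267. Most of these reads were those of contig_10, the most abundant of the whole list, with 4442365 and 2846813.

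**Figure D5:**
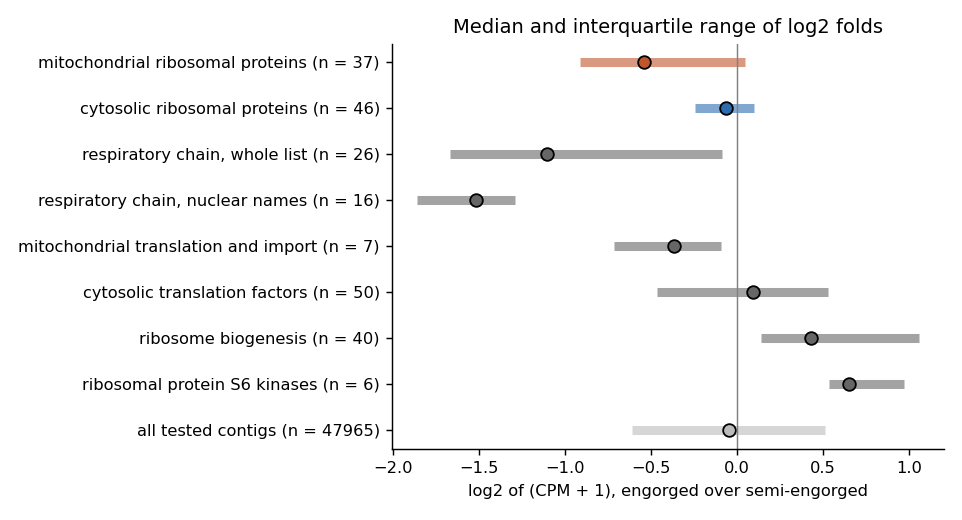
Median (point) and interquartile range over contigs (bar) of the log2 fold (CPM + 1, engorged over semi-engorged) of the ribosomal protein classes, of related name lists and of all tested contigs. Medians run from -1.52 for nuclear respiratory chain names, a part of the respiratory list chosen after values were seen, to 0.65 for S6 kinases; the whole respiratory list is at -1.11.

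Markers of the gland and of other tissues moved between the libraries too. Gland names (lipocalin, glycine-rich, cement) were present with 155 tested contigs, and took 0.360% of engorged-gland and 1.54% of semi-engorged-gland reads. Their contigs went both ways, with log2 folds from -9.86 to 8.27. Of them 89 (57.4%) were lower and 36 (23.2%) higher in engorged glands, against 15.5% and 13.0% of all tested contigs. Midgut and cuticle names took 0.0624% and 0.220%. Of their 65 contigs, 4 (6.15%) were higher and 24 (36.9%) lower in engorged glands, against the same 13.0% and 15.5%. Muscle names took 0.0757% and 0.0653%, nerve names 0.0646% and 0.0896%, and haemocyte and fat body names 0.207% and 0.205%. On library totals, shares and contigs did not go together in 2 of these lists. The median log2 fold was 0.21 for nerve names, whose share was lower in engorged glands, and -0.12 for muscle names, whose share was higher. This mismatch depended on the scaling. The nerve median was -0.024 with the median ratio set to 0. The muscle median was 0.018 without the 50 most abundant contigs in the totals. The part of the marker shifts in the values of ribosomal proteins was not tested.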

How the data were processed

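Each contig has, per the file headers, a whole-number count of reads and an RPKM deposited by the authors for both libraries. The RPKM values divide a count by contig length and library total; lengths derived from both libraries agreed to within 1e-06 bases for members. Per the submitters' processing notes, TopHat, Cufflinks and CASAVA 1.8 were used, with no step stated for any of them, and which tools assembled, annotated and counted is not given in the sources used here. The reads carry no molecular identifiers, so intervals cover counting error only.

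Counts were scaled to CPM with a pseudocount of 1 and a minimum of 20 reads over both libraries. Ratios have exact Clopper-Pearson 95% intervals. With 1 library per stage no test was made. edgeR 4.0.16 gave TMM factors as an alternative, and pandas 2.3.3 and scipy 1.17.1 were used throughout. The calculations were tested on simulated data. Members, lists and tests were chosen with earlier results of these data known. Named contigs are all mitochondrial members and, among cytosolic ones, those past the fold, the 5 with the most reads, the 5 highest and 5 lowest folds, stalk proteins and proteins on several contigs; S6, L31 and L35 were added after values were seen. In other lists, apart from those of tissue markers, the most abundant contig and the largest fold each way are named.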

Additional observations from a re-analysis of the deposited data

How the results depend on the processing

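The difference of class medians was -0.48 and ran from -0.50 (pseudocount 0.1) to -0.30 (pseudocount 10) under all other settings but 1. Only names that start with 28S, 39S, 40S or 60S gave 0.061, with a mitochondrial median of 0.027; most mitochondrial names start with another word, so this leaves 2 mitochondrial contigs, both near 0, and 17 cytosolic ones, with counts of 0 higher and 0 lower in both classes. The cytosolic median was -0.30 with the median ratio set to 0 and 0.16 with totals that left out the 50 most abundant contigs, where 22 of 83 members changed sign, so no direction is given for the class.

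Cytosolic counts (1 higher, 2 lower) were 2 higher with a pseudocount of 0.1, 0 and 1 with 10, 0 higher with the median ratio set to 0, 0 and 0 at a log2 fold of 2, and 1 lower with tick matches only. Mitochondrial contigs lower in the engorged library (8) were 3 with a pseudocount of 10, 13 with the median ratio set to 0 and 1 at a log2 fold of 2. All called members kept their sign wherever they were measured. All tested contigs (6257 higher, 7421 lower) counted 10956 higher and 15014 lower at pseudocount 0.1, 2020 and 2510 at pseudocount 10, 2145 and 1565 with 1 contig per description, 1763 and 3221 at a log2 fold of 2, and 3468 lower with contig numbers up to 32014. The order of these counts turned to 8719 and 7823 without the 50 most abundant contigs. The cause of these changes was not tested.

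Cytosolic shares were 1.56% of engorged and 1.63% of semi-engorged reads without the most abundant member, and 2.58% and 2.31% (ratio 1.12) without the 50 most abundant contigs. Mitochondrial shares were 0.0481% and 0.0670%, and 0.0820% and 0.0936% (ratio 0.876). The limits to tick matches and to contig numbers were chosen after seeing the data. No paired analysis was possible because each stage has 1 library. No replicate could be left out, and a difference between ticks of 1 stage cannot be told apart from one between stages. Depth limits mitochondrial contigs with few reads, such as S23.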
